A study of Mus musculus with 8 samples.

Results

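The genes described here are the 9 that encode transforming growth factor beta (TGF-beta) ligands, their 2 signalling receptors and the latent TGF-beta binding proteins: *Tgfb1*, *Tgfb2*, *Tgfb3*, *Tgfbr1*, *Tgfbr2*, *Ltbp1*, *Ltbp2*, *Ltbp3* and *Ltbp4*. They were chosen by name, among 33696 genes counted, and all 9 were found by their symbols. Their levels were followed across the cell types of the mouse optic nerve (ON) and between genotypes, and *Ltbp1* in oligodendrocyte precursor cells (OPCs) was singled out by name.

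TGF-beta is secreted in a latent form, in which the mature dimer stays bound to its own propeptide and cannot reach its receptors. Latent TGF-beta binding proteins (LTBPs) are linked to that propeptide and anchor the complex in the extracellular matrix, from which integrins and proteases release the ligand. The freed ligand binds the type II receptor, which phosphorylates the type I receptor, and the signal passes to the nucleus through the SMAD proteins. In the central nervous system the pathway is known for keeping microglia in their resting state, for vessel stability and for the response of glia to injury.

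The data are single-nucleus RNA counts (10x Genomics 3′ chemistry) of ONs from female mice on a C57BL/6J background at 120 days of age, 8 libraries in all. The 4 control libraries (replicates 1 to 4) come from cre-negative Piezo2 f/f mice, and the other 4 (replicates 10 to 13) are labelled Olig2-cre;Piezo2 f/f cKO. Both groups thus carry the floxed *Piezo2* allele, and in the second the Cre recombinase is knocked into the *Olig2* locus, so that these mice are also heterozygous for *Olig2*, a transcription factor of the oligodendrocyte (OL) lineage. Each library pools 6 ONs of 3 mice, so p-values measure the spread between pools.

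Depth was 39628926 to 56541132 unique molecular identifiers (UMIs) per library, and 37395 nuclei remained after filtering. Pairs of libraries shared at most 11 cell barcodes. Nuclei were clustered without the 9 genes and without 43 further genes of the pathway, and clusters were named from marker genes as 18934 OLs, 8063 astrocytes, 3476 fibroblasts, 1424 myeloid cells, 727 OPCs, 310 committed OPCs, 293 endothelial cells, 101 neurons, 82 T cells and 63 mural cells. All markers of the matching list were detected in each of these types, and 3922 nuclei stayed unnamed. Among the unnamed nuclei is a cluster of 286 that carried the OPC genes *Vcan* and *Lhfpl3* together with markers of another type. Committed OPCs had a median UMI count 2.08 times that of their own library and were exempt from the rule that left such mixtures unnamed. Their own 6 markers summed to 2723 to 7594 CPM (counts per 1000000) in the control libraries, which overlapped the 2928 to 3366 CPM of control OPCs. In the libraries labelled cKO the ranges were 3787 to 7751 and 2583 to 3378 CPM, without overlap. *Piezo2* was not lower in the libraries labelled cKO: in OLs it stood at 504, 388, 408 and 491 counts per 1000000 (CPM) in the control libraries and at 533, 537, 571 and 522 CPM in the others. The difference was +0.25 on the log2 scale (edgeR, adjusted p = 0.541). Counts are per whole gene, so a deletion of single exons need not lower them and this level does not check it. The second group is therefore called the libraries labelled cKO throughout.

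All levels below are CPM of the UMIs summed over the nuclei of a type in 1 library, with the mean ± SD over libraries. They are levels within nuclei, and no level is compared between genes. In the cell type comparison, each type of the control libraries was set against the mean of the other types (edgeR quasi-likelihood test with the library as a block). A gene was called when its Benjamini-Hochberg adjusted p was below 0.05 and its log2 difference exceeded 0.5. Neurons entered with 3 control libraries. The authors regard their own neuronal cluster as likely contamination by brain tissue next to the nerve, so these nuclei may not belong to the ON. Beside the nuclei, the level in droplets without a nucleus is given where it matters, since free RNA adds counts to every nucleus.

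**Figure D1:**
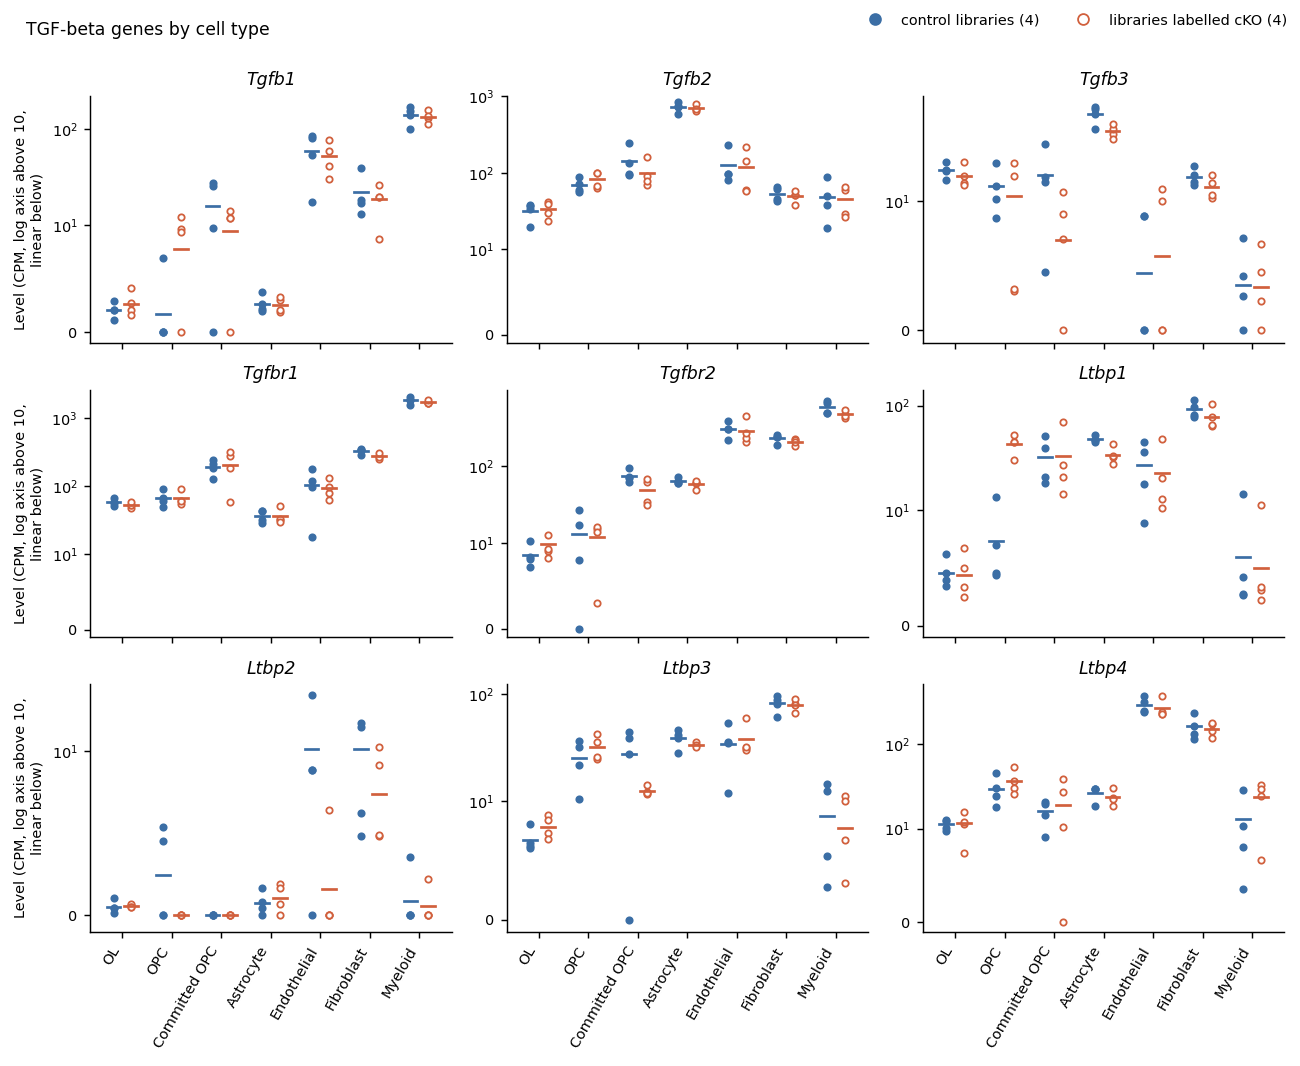
Level of each of the 9 genes (CPM, log axis above 10 and linear below) in 7 cell types of the ON, with filled points for the 4 control libraries, open points for the 4 libraries labelled cKO and lines at the means. In the control libraries *Tgfb2* and *Tgfb3* are highest in astrocytes, with means of 724 and 56.3 CPM, *Tgfb1*, *Tgfbr1* and *Tgfbr2* in myeloid cells, and the *Ltbp* genes in fibroblasts or endothelial cells.

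Across the 8 types, 44 of 64 member and type pairs were called, 20 higher and 24 lower than the mean of the other types. With the nuclei clustered at resolution 2 in place of 3, where neurons were absent and T cells were added, 29 pairs were called. The share of all genes called at resolution 2 was not counted, so that number has no background beside it. *Ltbp2* was too low to be tested. In fibroblasts 6 of the 8 tested members were higher and 1 was lower, with a median log2 difference of 1.66 against 0.06 over all genes, of which 37.7% were called. In astrocytes 4 were higher and 3 lower, against 39.1% of all genes called. In myeloid cells 3 were higher and 5 lower, where 45.1% of all genes were called. In endothelial cells 3 were higher and 1 lower, against 34.4% of all genes. In OLs 1 was higher and 7 were lower, with a median of -1.84 against 0.04 over all genes, of which 44.8% were called. In OPCs none was higher and 3 were lower, against 28.8% of all genes, and in committed OPCs 3 were higher and 1 lower, against 23.3%. In neurons none was higher and 3 were lower, against 30.2%.

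*Tgfb1*, the ligand best known from immune cells, was highest in myeloid cells. The control libraries held 139, 168, 155 and 100 CPM there, a mean of 141 ± 29.5 (SD, n = 4), and none of these values was reached by endothelial cells at 58.6 ± 30.5 CPM. The log2 difference of myeloid cells from the other types was 4.23 (SE 0.25, edgeR, adjusted p = 3.28e-19). Endothelial cells (log2 2.74) and fibroblasts (log2 1.15, 22.0 ± 11.6 CPM) were also called higher. Committed OPCs followed at 15.7 ± 13.1 CPM, with ranges that overlapped those of fibroblasts. In neurons (3.08 ± 5.33, n = 3), astrocytes (2.65 ± 0.760), OLs (2.06 ± 0.728) and OPCs (1.74 ± 3.49 CPM) the gene lay below its level in empty droplets, which was 14.7 ± 4.26 CPM. Myeloid cells held 42.1% of the *Tgfb1* UMIs of named nuclei and fibroblasts 28.5%.

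*Tgfb2*, a ligand known from glia and from the eye, was an astrocyte transcript. The 4 control libraries held 727, 588, 747 and 835 CPM in astrocytes, 724 ± 102 on average, and 86.8% of all *Tgfb2* UMIs of named nuclei fell in this type. The difference from the other types was 3.76 on the log2 scale (SE 0.12, edgeR, adjusted p = 4.47e-28). Next came committed OPCs at 141 ± 70.3 CPM (log2 1.10, called), endothelial cells at 125 ± 69.3, OPCs at 68.5 ± 14.2, fibroblasts at 53.5 ± 10.7, myeloid cells at 48.6 ± 29.0, OLs at 32.1 ± 8.38 and neurons at 17.6 ± 1.06 (n = 3). Neighbours in this order overlapped in range from committed OPCs down to OLs. In committed OPCs the 7 astrocyte markers summed to 882 to 3327 CPM, against 5790 to 7485 CPM in astrocytes, and their part in the *Tgfb2* call was not tested. Empty droplets held 233 ± 63.2 CPM of *Tgfb2*, more than the mean of any type but astrocytes.

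*Tgfb3*, the third ligand, was also highest in astrocytes, at 61.7, 56.5, 64.7 and 42.2 CPM (56.3 ± 9.99, log2 2.48, SE 0.19, edgeR adjusted p = 3.14e-15). OLs, at 18.4 ± 2.56 CPM, were the other type called higher (log2 0.87), and *Tgfb3* was the only 1 of the 8 tested members that was called higher in OLs. Because OLs are numerous, they held 34.0% of its UMIs, against 54.9% in astrocytes. Committed OPCs (16.7 ± 11.0), fibroblasts (16.3 ± 2.86), OPCs (13.6 ± 5.65) and neurons (12.2 ± 14.1 CPM, n = 3) overlapped with OLs or with each other, and endothelial cells (4.43 ± 5.12) and myeloid cells (3.5 ± 2.99 CPM) came last. Empty droplets held 15.1 ± 1.08 CPM.

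*Tgfbr1*, the type I receptor kinase, stood out in myeloid cells, with 2027, 1844, 1834 and 1548 CPM in the control libraries. Their mean of 1813 ± 198 CPM exceeded that of fibroblasts, 331 ± 32.0 CPM, without overlap. The log2 difference was 4.14 for myeloid cells (SE 0.12, edgeR, adjusted p = 1.90e-30) and 1.42 for fibroblasts (SE 0.13). Committed OPCs were called higher too, by 0.54 on the log2 scale at 192 ± 47.5 CPM. The myeloid markers summed to 301 to 927 CPM in these nuclei, against 113 to 180 CPM in OPCs and 5367 to 7022 CPM in myeloid cells, and their part in this call was not tested. Endothelial cells (103 ± 65.5), neurons (67.6 ± 51.3, n = 3), OPCs (67.1 ± 17.3) and OLs (58.0 ± 6.56 CPM) followed with overlapping ranges. Astrocytes were lowest, at 31.7, 29.1, 42.9 and 43.3 CPM, which is below the 66.7 ± 8.64 CPM of empty droplets, and their log2 difference was -2.11 (SE 0.17).

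*Tgfbr2*, the type II receptor that binds the ligand first, had the same leading type, with 698, 494, 490 and 672 CPM in myeloid cells (588 ± 112, log2 3.35, SE 0.11). Endothelial cells at 305 ± 67.7 CPM and fibroblasts at 233 ± 28.9 CPM were called higher as well, by 2.10 and 1.90, and their ranges overlapped. Committed OPCs (75.7 ± 14.1) and astrocytes (64.8 ± 5.25 CPM) overlapped next. Neurons (30.9 ± 18.1, n = 3), OPCs (13.2 ± 11.7) and OLs (8.67 ± 1.53 CPM) were called lower, OLs by 3.22 on the log2 scale (difference -3.22, SE 0.21). For comparison, empty droplets held 62.9 ± 2.66 CPM.

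*Ltbp1*, which links the latent complex to the matrix, was a fibroblast and astrocyte transcript in the control libraries. Fibroblasts held 113, 78.2, 80.6 and 97.3 CPM (92.3 ± 16.2, log2 2.66, SE 0.16) and astrocytes 45.1, 46.7, 47.3 and 52.1 CPM (47.8 ± 3.03, log2 1.68, SE 0.17). These types carried 41.3% and 45.4% of its UMIs. Committed OPCs at 32.4 ± 15.8 CPM were called higher (log2 1.18), with ranges that overlapped those of astrocytes and of endothelial cells (26.7 ± 16.3). The astrocyte markers in committed OPCs are given above, the fibroblast markers summed to 208 to 842 CPM there, and the part of both in this call was not tested. Neurons (9.80 ± 9.28, n = 3), OPCs (7.32 ± 4.24), myeloid cells (5.97 ± 5.61) and OLs (4.52 ± 1.19 CPM) lay below the 18.2 ± 2.00 CPM of empty droplets. In control OPCs the *Ltbp1* difference from the other types was -1.09 (log2, SE 0.49, edgeR, adjusted p = 0.0902), which did not pass the threshold. With clusters drawn at resolution 2 in place of 3 this value was 0.68 (SE 1.20), of the opposite sign.

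*Ltbp2*, an LTBP that does not bind latent TGF-beta in the way the others do, was scarce. It reached 10.4 ± 9.91 CPM in endothelial cells and 10.3 ± 5.58 CPM in fibroblasts, from 4 and 55 UMIs, with overlapping ranges. In OPCs (2.47 ± 2.88), myeloid cells (0.90 ± 1.79), astrocytes (0.73 ± 0.69) and OLs (0.52 ± 0.36 CPM) it rested on at most 12 UMIs per type. No UMI was found in committed OPCs or neurons of the control libraries.

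*Ltbp3*, known from bone growth, was highest in fibroblasts, at 80.0, 96.8, 89.0 and 61.1 CPM (81.7 ± 15.3, log2 1.90, SE 0.16). Astrocytes at 38.7 ± 7.83 CPM were called higher by 0.76 and did not overlap fibroblasts. Endothelial cells (33.9 ± 16.9), committed OPCs (27.6 ± 19.7), OPCs (25.1 ± 11.5) and neurons (24.9 ± 11.6, n = 3) overlapped in range, and myeloid cells (8.73 ± 5.57) and OLs (6.68 ± 0.92 CPM) were called lower. Empty droplets held 38.8 ± 3.87 CPM, and fibroblasts were above the droplets in every library.

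*Ltbp4*, the LTBP of elastic tissue and vessels, was highest in endothelial cells, with 239.8, 250.8, 372 and 317 CPM (295 ± 61.6, log2 3.10, SE 0.26). Fibroblasts came next with 134, 239.5, 115 and 166 CPM (164 ± 54.7, log2 2.25, SE 0.14), just short of the endothelial range. Neurons held 64.1 ± 42.8 CPM (n = 3), close to the 67.2 ± 6.13 CPM of empty droplets, and OPCs (29.5 ± 11.7), astrocytes (26.9 ± 5.53), committed OPCs (16.0 ± 5.29), myeloid cells (12.9 ± 11.3) and OLs (11.2 ± 1.52 CPM) lay below it.

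Within types, the members were not evenly spread. Subclusters are a description only, and were made without these genes. In control astrocytes *Tgfb2* ran from 979 ± 140 CPM in a subcluster led by *Prkcb*, *Hpse2* and *Gabrg3* through 756 ± 125 CPM in the largest subcluster (1872 nuclei) to 451 ± 68.7 CPM in a subcluster led by *Myoc* and *Reln*. *Tgfb3* had another order, at 29.2 ± 4.12, 66.7 ± 13.9 and 60.5 ± 7.87 CPM in the same 3 subclusters. *Ltbp1* stood at 21.1 ± 9.25, 72.1 ± 6.46 and 13.6 ± 6.72 CPM in them. Smaller subclusters with 3 control libraries held 66.9 ± 12.4 CPM (65 nuclei) and 35.0 ± 39.1 CPM (105 nuclei).

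Fibroblasts were more divided. *Ltbp1* stood at 232 ± 52.1 CPM in a subcluster led by *Galnt18*, *Tenm3* and *Inmt* and at 236 ± 60.3 CPM in another led by *Igfbp3*, but at 6.55 ± 3.92 CPM in the largest, led by *Adamtsl3* and *Slc4a10*. *Ltbp2* was nearly limited to the first of these, at 54.3 ± 19.6 CPM against at most 4.62 CPM in the others with more than 1 control library. *Ltbp4* peaked in the *Igfbp3* subcluster at 327 ± 35.5 CPM, and *Tgfb3* in the *Adamtsl3* subcluster at 35.9 ± 6.67 CPM. In myeloid cells, *Tgfbr1* was 2241 ± 258 CPM in the subcluster with microglia markers and 878 ± 171 CPM in that with *Mrc1*, *F13a1* and *Cd163*, markers of border-associated macrophages. *H2-Ab1*, *H2-Aa* and *Ccr2* also led the latter subcluster, so it may hold other myeloid cells too. *Tgfbr2* (627 ± 146 and 512 ± 123 CPM) and *Tgfb1* (149 ± 46.4 and 128 ± 44.0 CPM) overlapped between these 2 subclusters.

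**Figure D2:**
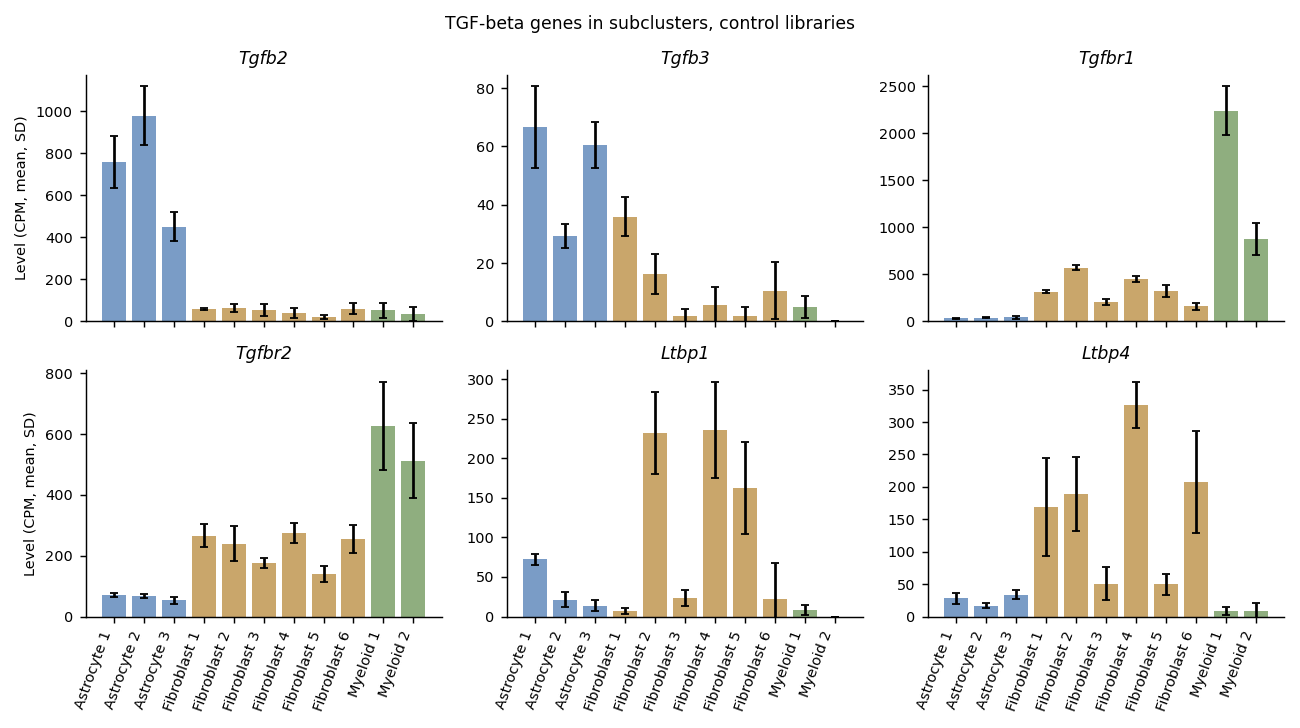
Level (CPM) of 6 of the members in subclusters of control astrocytes, fibroblasts and myeloid cells, with bars at the mean over libraries and error bars of 1 SD. *Ltbp1* lies at 232 and 236 CPM in fibroblast subclusters 2 and 4 and at 6.55 CPM in the largest, subcluster 1, and *Tgfbr1* is 2241 CPM in myeloid subcluster 1 and 878 CPM in subcluster 2.

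The genes most like each member in level were found by Pearson correlation of log2(CPM + 1) over 34 sums of the control libraries and 14311 genes. The sums share libraries, depth and cell types, so these values are a description. *Tgfb1* was closest to *Arhgap27* (r = 0.94), *Ctsc* and *Pik3ap1*. *Tgfb2* was closest to *Gfap* (r = 0.91), *Prdx6* and *Aqp4*, and *Gfap* and *Aqp4* are astrocyte markers. *Tgfb3* was closest to *Gm26981* (r = 0.83), *Trpc1* and *Plxnb1*. *Tgfbr1* was closest to *Itgb5* (r = 0.91), an integrin subunit, with *Rbm47* also among its nearest, and *Tgfbr2* to *Pitpna* (r = 0.86), *Rreb1* and *Nrp1*. *Ltbp1* was closest to *Parva* (r = 0.90), *Col5a1* and *Crispld2*. *Ltbp2* was closest to *Slco2a1* (r = 0.81), *Gm20631* and *Proser2*, *Ltbp3* to *Zfp423* (r = 0.88), *Adcy6* and *Ppm1e*, and *Ltbp4* to *Tmtc1* (r = 0.91), *Akap12* and *Col4a1*.

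The 43 further genes of the pathway cover co-receptors, activators of the latent complex, matrix proteins that hold it, SMADs and other transducers, brakes and target genes. Of these, 37 were tested between types. In fibroblasts 26 were higher and 1 was lower, with a median log2 difference of 1.41 against 0.06 over all genes, of which 37.7% were called. Among them were the target gene *Ccn2* (log2 4.37), the co-receptor *Tgfbr3* (3.70), the matrix genes *Fn1* (3.71) and *Fbn1* (2.87), and the brakes *Smad6* (3.29) and *Pmepa1* (2.34). In endothelial cells, where 34.4% of all genes were called, 13 were higher and 3 lower, led by the endothelial type I receptor *Acvrl1* (5.67), the co-receptor *Eng* (4.62) and the elastic fibre gene *Fbln5* (4.68), with *Fn1* (2.44), *Smad6* (2.55) and *Itgb1* (1.34). In myeloid cells, with 45.1% of all genes called, 19 were higher and 6 lower. They included *Nrros* (5.33), which tethers latent TGF-beta on microglia, the integrin subunit *Itgb5* (4.21), the brakes *Pmepa1* (2.89), *Skil* (2.85) and *Ski* (1.47), and the target gene *Tgfbi* (2.87).

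Astrocytes had 10 of these genes higher and 12 lower, where 39.1% of all genes were called. The integrin subunit *Itgb8* (1.78), which activates latent TGF-beta, and the proteases *Bmp1* (2.28) and *Mmp14* (1.98) were higher. The brakes went both ways, with 4 higher, among them *Smurf1* (0.81), and 3 lower, among them *Pmepa1* (-2.51) and *Smad7* (-1.77). OPCs had 6 higher and 7 lower against 28.8% of all genes called, with *Fbn2* (3.71), *Fbn1* (2.08), *Mmp2* (2.57), *Itgb8* (1.31) and *Itgav* (1.23) higher and *Smurf1* (-1.47) lower. Committed OPCs had 4 higher and 4 lower, a share close to the 23.3% of all genes called there, with *Fbn2* (3.93), *Bmp1* (1.31) and *Itgb8* (0.81) higher and *Fn1* (-1.97), *Ccn2* (-2.80) and *Tgfbr3* (-1.35) lower. *Fbn2* encodes a fibrillin, the microfibril protein to which LTBPs attach.

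OLs had 2 higher and 18 lower, where 44.8% of all genes were called. *Smad7* (2.12), an inhibitor of the receptors, was higher, and *Fbn1* (-3.45), *Pmepa1* (-1.82), *Ski* (-1.38), *Smad3* (-1.34) and *Smurf2* (-0.87) were lower. In neurons 2 were higher and 9 lower, a share close to the 30.2% of all genes called, with *Fn1* (-1.92), *Itgav* (-1.16), *Ski* (-1.12), *Itgb5* (-1.55) and *Mmp14* (-3.05) lower and *Efemp2* without any UMI.

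**Figure D3:**
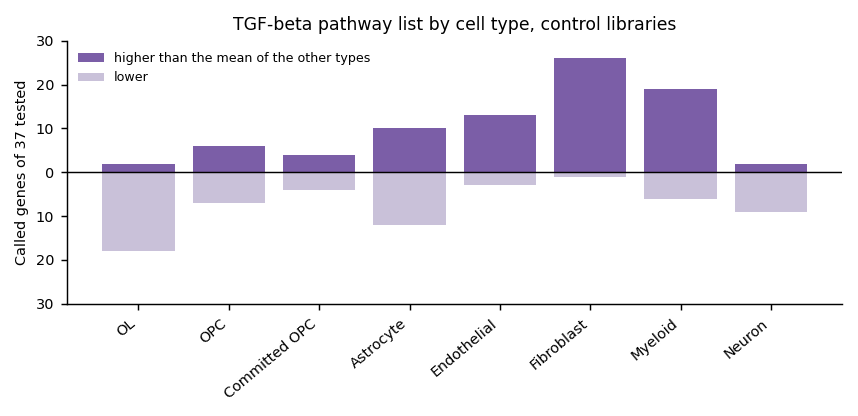
Number of the 37 tested pathway genes called higher (bars upward from 0) or lower (bars downward) in each control cell type than the mean of the other types. Fibroblasts have 26 higher and 1 lower, and OLs have 2 higher and 18 lower.

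The second comparison asked whether the members differ between the libraries labelled cKO and the control libraries within a cell type. Its main finding for the named pair is that *Ltbp1* was low in OPCs of all control libraries and higher in OPCs of all libraries labelled cKO. The control libraries held 13.4, 4.34, 6.98 and 4.53 CPM, from 5, 1, 2 and 1 UMIs. The libraries labelled cKO held 52.1, 30.4, 45.1 and 44.5 CPM, from 17, 10, 14 and 19 UMIs. The lowest of the second group was above the highest of the first, so the groups did not overlap, as was the case for 4.63% of the 6114 genes tested in OPCs. Those genes passed the filter on low counts, and *Ltbp1* is not among them. In sum 60 UMIs came from 412 nuclei labelled cKO and 9 from 315 control nuclei.

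The means were 43.0 ± 9.13 and 7.32 ± 4.24 CPM (SD, n = 4 each), a 5.88-fold or log2 2.56 difference. An exact permutation test over libraries gave a two-sided p of 0.0286, the smallest that 4 against 4 can give, and the pair was named with earlier results of these data known. In the edgeR fit with its usual filter *Ltbp1* was not tested in OPCs, because the filter asked for 31.4 CPM in 4 libraries and 3 reached it. Without the filter the log2 difference was 2.33 (SE 0.47, edgeR, adjusted p = 0.000618), and 34 of 20084 genes were called, or 0.169%. DESeq2 gave 2.41 with an unadjusted p of 0.000167 and no adjusted value, since the gene fell under its own threshold on counts. Leaving out any 1 library kept the difference between 2.15 and 2.93 in the unfiltered fit.

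OPC nuclei with an *Ltbp1* UMI were also more frequent in the libraries labelled cKO. These shares come from the same nuclei and UMIs as the levels, so they are no separate support. In the libraries labelled cKO 14.0%, 6.80%, 13.2% and 12.1% of OPC nuclei held at least 1 *Ltbp1* UMI, with exact 95% binomial intervals of 7.66% to 22.7%, 2.78% to 13.5%, 6.49% to 22.9% and 7.24% to 18.7%. In the control libraries the shares were 3.48%, 1.72%, 2.44% and 1.67%, with intervals of 0.956% to 8.67%, 0.0436% to 9.24%, 0.297% to 8.53% and 0.0422% to 8.94%. These intervals cover counting error only. The means were 11.5% and 2.33% (exact permutation test, two-sided p = 0.0286), at median depths of 3151 and 3442 UMIs per nucleus.

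With every nucleus thinned to 1000 UMIs, the shares were 4.42% and 1.40%, and the difference of 3.02 percentage points missed the threshold (exact permutation test, p = 0.0571). This left out 2 nuclei per genotype. Myeloid nuclei, in which *Ltbp1* was called lower than the mean of the other types and overlapped control OPCs in level, held a UMI in 0.848% (labelled cKO) and 1.05% (control) of nuclei at median depths of 1710 and 1868 UMIs, and in 0.532% and 0.791% when thinned. OLs held one in 1.07% (labelled cKO) and 1.20% (control) of nuclei at median depths of 2585 and 2799 UMIs, and in 0.418% and 0.407% when thinned. Empty droplets held 14.0 ± 2.12 CPM in the libraries labelled cKO and 18.2 ± 2.00 CPM in the control libraries. OPCs were below that level in every control library and above it in every library labelled cKO. A fit with an assumed 5% of free RNA subtracted is given in the last section. The part of free RNA in the OPC difference was not tested otherwise.

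**Figure D4:**
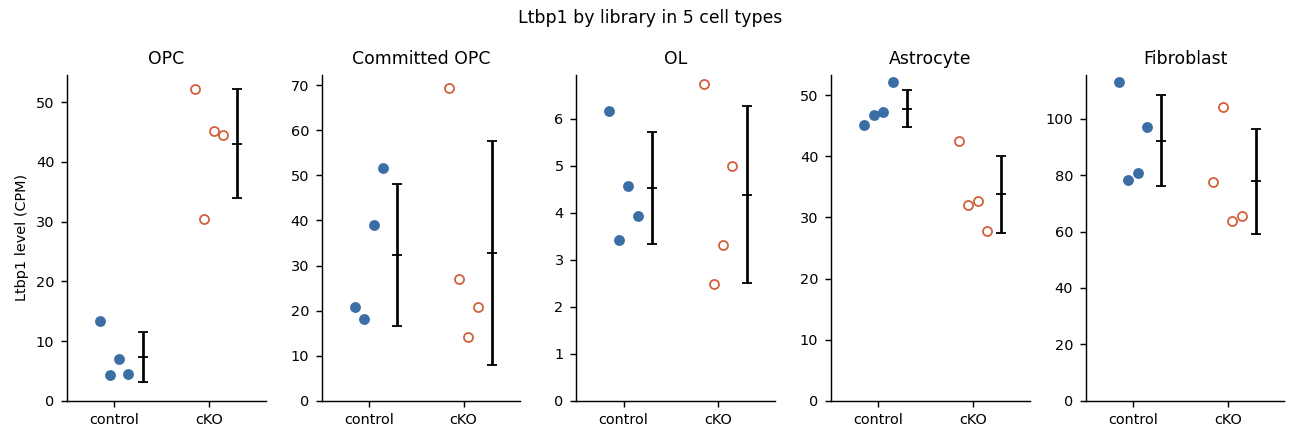
*Ltbp1* level (CPM) in each library for 5 cell types, with control libraries as filled points, libraries labelled cKO as open points, and the mean with 1 SD beside each group; each panel has its own axis from 0. In OPCs the control libraries lie between 4.34 and 13.4 CPM and the libraries labelled cKO between 30.4 and 52.1 CPM, whereas the groups overlap in committed OPCs, OLs and fibroblasts.

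Marker lists of other cell types were summed within the same OPC nuclei. The 7 astrocyte markers summed to 1213 to 1485 CPM in the control libraries and 1349 to 1519 CPM in the libraries labelled cKO, the 10 fibroblast markers to 529 to 1078 and 509 to 662 CPM, and the 6 committed OPC markers to 2928 to 3366 and 2583 to 3378 CPM. The 5 OPC markers summed to 10020 to 12220 and 9692 to 10870 CPM. All these ranges overlapped. Erythroid genes were lower in the libraries labelled cKO (463 to 1140 against 1252 to 2190 CPM), and so were pituitary genes (6.07 to 28.1 against 42.9 to 977 CPM). The 6 neuron markers were lower there too, without overlap (1612 to 2055 against 2068 to 2412 CPM). The part of these in the *Ltbp1* difference was not tested. *Olig2* itself had the higher mean in the libraries labelled cKO in each of the 7 types compared, although these mice are heterozygous for it. Its counts are per whole gene and do not tell the allele with Cre from the other. In myeloid cells it was 4.17 to 10.7 CPM in the control libraries and 13.5 to 26.7 CPM in the others. In endothelial cells it was 0 to 17.6 and 20.1 to 32.0 CPM. Neither pair of ranges overlapped, as for 3.34% and 3.03% of the genes tested there, a set without *Olig2*. In OPCs it was 180 ± 58.2 CPM in the control libraries and 287 ± 75.4 CPM in the others, with overlapping ranges (log2 0.67, edgeR, adjusted p = 0.229). In OLs it was 24.0 to 40.3 CPM and 43.3 to 52.6 CPM, without overlap, as for 5.87% of all genes in OLs (log2 0.62, edgeR, adjusted p = 0.209). The part of *Olig2* in the *Ltbp1* difference was not tested.

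In the next stages of the lineage the groups overlapped. Committed OPCs held 20.8, 18.2, 39.0 and 51.6 CPM in the control libraries and 69.3, 27.0, 14.1 and 20.8 CPM in the libraries labelled cKO. OLs held 6.17, 3.42, 4.57 and 3.92 CPM against 6.72, 2.49, 3.32 and 4.99 CPM (log2 -0.13, SE 0.31, edgeR, adjusted p = 0.931). In OPCs the genotype difference was 2.69 above the mean of the other 6 types (log2, SE 0.56, edgeR interaction, adjusted p = 0.0709), which did not pass the threshold. Of 11613 genes in that interaction 0 were called (0%), and 575 had an unadjusted p below 0.05, among them 2 of the 8 members tested. The second was *Tgfb1* (log2 2.16, SE 1.02, edgeR, adjusted p = 0.981), which rested on 2 UMIs in control OPCs and 11 in those labelled cKO. DESeq2 was not run for the interaction. Without the filter on low counts the *Ltbp1* interaction was 2.72 with an adjusted p of 0.00427, and without cKO replicate 11 it was 3.05 with an adjusted p of 0.00263, both past the threshold. It was not called with any other library left out. In OPCs cKO replicate 11 had the lowest *Ltbp1* level of its group, 30.4 CPM. The shares of all genes called in these alternative interaction fits were not counted.

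In the libraries labelled cKO alone, OPCs had *Ltbp1* 1.42 above the mean of the other types on the log2 scale (SE 0.30, edgeR, adjusted p = 0.000116). Neurons had too few nuclei for this fit, whereas they were among the other types in the fit of the control libraries. The value in the control libraries, -1.09, was not called (edgeR, adjusted p = 0.0902) and was 0.68 at resolution 2 (adjusted p = 0.774). OPCs held 5.03% of all *Ltbp1* UMIs of named nuclei labelled cKO. Among the members, *Tgfb2* (log2 0.29, SE 0.24), *Ltbp3* (0.31, SE 0.39) and *Tgfbr1* (-0.01, SE 0.25) were the 3 tested in OPCs by genotype with the filter, and none was called. In OPCs 19 of 6114 genes were called, or 0.311%.

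*Ltbp1* lies on chromosome 17 of GRCm39 (chr17:75312519-75699507, plus strand). RefSeq lists a pair of promoter windows for it on GRCm38.p6, far apart in the gene, and both are shown because *Ltbp1* in OPCs was singled out by name. The 3′ counts are per gene and cannot tell transcripts of the 2 starts apart. Each window runs from 250 bases before to 50 bases after the start, and 4 motifs were searched on both strands: the cyclic AMP response element TGACGTCA, the AP-1 site TGANTCA, the Smad palindrome GTCTAGAC and the GC box GGGCGG. Capitals mark a match.
Ltbp1, chr17:75005279-75005578: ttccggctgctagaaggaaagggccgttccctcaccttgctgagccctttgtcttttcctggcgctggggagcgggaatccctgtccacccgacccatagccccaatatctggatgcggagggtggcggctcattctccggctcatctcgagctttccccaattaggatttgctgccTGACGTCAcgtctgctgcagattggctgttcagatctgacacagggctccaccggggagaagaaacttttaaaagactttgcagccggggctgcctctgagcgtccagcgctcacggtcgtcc
Ltbp1, chr17:75178531-75178830: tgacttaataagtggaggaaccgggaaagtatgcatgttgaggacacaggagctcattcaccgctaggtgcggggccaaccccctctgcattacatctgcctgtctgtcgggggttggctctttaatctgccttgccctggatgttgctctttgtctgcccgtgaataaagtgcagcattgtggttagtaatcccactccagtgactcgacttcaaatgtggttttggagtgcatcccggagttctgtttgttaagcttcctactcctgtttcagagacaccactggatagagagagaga

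The first window has a GC content of 58.7% and holds TGACGTCA at base 178, and the second has a GC content of 50% and holds none of the 4 motifs. Of 32851 such windows in the genome, outside 1 chromosome that was left out, 1.79% hold TGACGTCA, 7.81% TGANTCA, 0.213% GTCTAGAC and 35.7% GGGCGG. A match is a description of letters and not a site of binding.

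In astrocytes, *Ltbp1* was the member with the smallest p by genotype, and there it was lower. The control libraries held 45.1, 46.7, 47.3 and 52.1 CPM and the libraries labelled cKO 42.5, 32.1, 32.7 and 27.7 CPM. The groups did not overlap, as was so for 4.55% of all genes tested in astrocytes. The log2 difference was -0.50 (SE 0.14, edgeR, adjusted p = 0.535), which did not pass the threshold. The largest astrocyte subcluster, in which *Ltbp1* is among the highest, held 1872 of 3972 control astrocytes and 1465 of 4091 labelled cKO, and its level there was 72.1 ± 6.46 and 56.9 ± 7.58 CPM, with overlapping ranges.

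*Tgfb3* in astrocytes, at 61.7, 56.5, 64.7 and 42.2 CPM in the control libraries, stood at 37.6, 34.1, 41.9 and 46.1 CPM under the cKO label. Control replicate 4 and cKO replicate 13 made the groups overlap, and the log2 difference of -0.49 (SE 0.15, edgeR, adjusted p = 0.566) was not called. *Tgfb2* showed little difference, with 679, 635, 788 and 670 CPM labelled cKO within the range of the control values (log2 -0.07, SE 0.13, adjusted p = 0.916). *Tgfbr1* in fibroblasts was 342, 342, 284 and 356 CPM in the control libraries and 253, 280, 264 and 301 CPM in the others, with overlapping groups (log2 -0.27, SE 0.12, edgeR, adjusted p = 0.999).

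In myeloid cells, where both receptors are highest, *Tgfbr1* was 1680, 1662, 1687 and 1853 CPM in the libraries labelled cKO, within the spread of the control values (log2 -0.08, SE 0.13, edgeR adjusted p = 0.936). *Tgfbr2* was 479, 535, 429 and 455 CPM there (log2 -0.31, SE 0.15, adjusted p = 0.857), and the groups overlapped. *Tgfb1* was 111, 129, 157 and 137 CPM (log2 -0.09, SE 0.19, adjusted p = 0.954). In endothelial cells *Ltbp4* was 228, 379, 241 and 230 CPM labelled cKO (log2 -0.14, SE 0.25, adjusted p = 1.00).

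**Figure D5:**
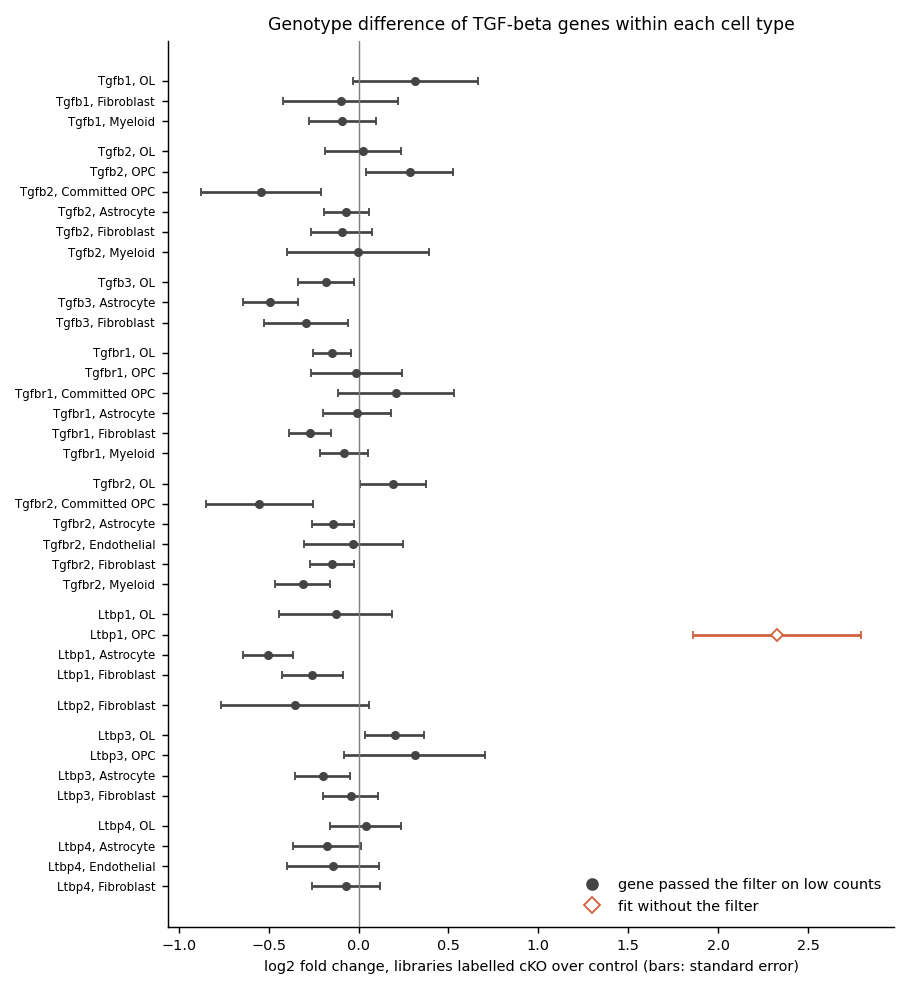
Log2 difference between the libraries labelled cKO and the control libraries for each member and cell type tested, with bars of 1 SE, and *Ltbp1* in OPCs from the fit without the filter on low counts. *Ltbp1* in OPCs lies at 2.33, and the 36 values of the filtered fits lie within 0.55 of 0.

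Over all 7 types, 36 of 63 member and type pairs were high enough to be tested, and edgeR called 0. An unadjusted p below 0.05 was found for 3, the astrocyte and fibroblast values above (6.56% of all gene and type pairs had one), and DESeq2 called 0 of 57 values, 11 of which had no adjusted p. Of the 36 differences 28 were negative and 8 positive, and the largest was 0.55 in size. They share genes and libraries, so they are not independent, and their signs were not tested. The pairs tested were 8 in OLs, 3 in OPCs, 3 in committed OPCs, 7 in astrocytes, 2 in endothelial cells, 9 in fibroblasts and 4 in myeloid cells. The share of all genes called was low as well: 12 of 14487 in OLs (0.0828%, and 53 of 19672 by DESeq2) and 0% in committed OPCs, astrocytes, endothelial cells, fibroblasts and myeloid cells. At an unadjusted p below 0.05 the last 5 had 300, 1079, 94, 493 and 379 genes, and DESeq2 called 0, 11, 0, 1 and 0 genes in them.

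The 43 further pathway genes gave 183 gene and type pairs, and edgeR called 0 of them. An unadjusted p below 0.05 was found for 23, or 12.6%, of which 20 were lower and 3 higher in the libraries labelled cKO. Over all genes the share with such a p was 6.56%, and genes were tested in several types, so these pairs are not independent. The directions of all genes with such a p were not counted. The median log2 difference of the tested pathway genes was 0.03 in OLs and in astrocytes. It was -0.01 in committed OPCs, -0.08 in endothelial cells and in fibroblasts, -0.10 in OPCs and -0.14 in myeloid cells. DESeq2 called 1, *Fbn2* in OLs, where it called 0.269% of all genes. This fibrillin gene was 16.4 ± 1.89 CPM in control OLs, between 14.8 and 18.6, and 9.60 ± 1.17 CPM in OLs labelled cKO, between 8.48 and 11.1. The groups did not overlap, as was so for 5.87% of all genes tested in OLs, and the log2 difference was -0.80 (SE 0.14, edgeR, adjusted p = 0.0863). DESeq2 gave -0.81 (adjusted p = 0.00369) and edgeR without the filter on low counts -0.79 (adjusted p = 0.0236), a fit that called 0.174% of all genes in OLs. In OPCs *Fbn2* was 104 ± 17.9 and 74.3 ± 5.34 CPM (log2 -0.50, adjusted p = 0.544) and in committed OPCs 137 ± 41.9 and 215 ± 58.9 CPM (log2 0.59, adjusted p = 0.882).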

How the data were processed

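Single-nucleus libraries (10x Genomics 3′) were counted by the authors with Cell Ranger 7.0.0, as the submitters' processing notes name it, on GRCm39. The deposited values are whole UMI counts per gene and barcode without normalization, for every barcode, and the later removal of ambient RNA and doublets by the authors is not in them. Total counts per library and nuclei per type limit the precision of every value.

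Nuclei were called by the OrdMag threshold and a test against empty droplets (false discovery rate 0.01), and were kept with at least 200 genes, at most 5% mitochondrial counts and no extreme values, after those with the highest Scrublet scores were removed. Leiden clustering at resolution 3 (scanpy 1.11.5) left out 54 genes, among them the 9 members and the pathway list. Clusters needed 3 raised markers of a list to be named. Counts were summed per library and type from at least 10 nuclei and 1000 counts and tested with edgeR 4.0.16 (TMM, filterByExpr, quasi-likelihood), with standard errors from the F statistic. A call needed an adjusted p (Benjamini-Hochberg over all genes of 1 comparison) below 0.05 and a log2 difference over 0.5. Between cell types the library was a block. The interaction set the genotype difference in OPCs against the mean of that in the other types. Shares of nuclei and single levels were compared by exact permutation tests, two-sided. The genotype fits with the filter were tested in OLs and OPCs on simulated counts with known changes. The changed genes were better counted than *Ltbp1* in OPCs, so this does not cover that result.

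Members and lists were chosen with earlier results of these data known. The named genes are all members, for the pathway list up to 6 called genes per comparison with the smallest adjusted p, and the 3 genes most like each member among genes of at least 5 CPM. *Fbn2* in the genotype comparison lies outside that rule and was chosen after its values were seen. Alternatives were DESeq2 1.42.0, no filter on low counts, DESeq2 size factors, nuclei of at least 1000 UMIs, free RNA subtracted, resolution 2, no block, and each library left out. For *Ltbp1* in OPCs, the exact test and the alternatives joined with the unfiltered fit were chosen after seeing the data. Mural and T cells had too few nuclei for a test, and unnamed nuclei entered none. Some genes that these rules name are not reported here. Promoter windows come from RefSeq.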

Additional observations from a re-analysis of the deposited data

Results flagged for a closer look

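In 123 groups of 4 libraries (a member in a cell type and genotype), 14 had 1 library far from the other 3 by Dixon's criterion, where chance gives about 1 in 20 groups, or 6.2. Of the 14, 6 rested on at most 10 UMIs in the whole group. These were *Tgfb1* in control OPCs, 6.98 CPM in replicate 3 from 2 UMIs, with none in the others, *Ltbp1* in myeloid cells, 14.3 CPM in control replicate 2 and 11.1 CPM in cKO replicate 11, *Ltbp2* in myeloid cells, 3.58 and 2.23 CPM in the same libraries, and *Ltbp2* in endothelial cells, 6.39 CPM in cKO replicate 13.

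Among the better counted groups, *Tgfbr1* in cKO replicate 13 stood above the others in astrocytes (50.8 CPM against 29.99 to 32.8) and in myeloid cells (1853 CPM against 1662 to 1687). *Ltbp4* was low in astrocytes of control replicate 1 (18.6 CPM against 29.4 to 29.9). In endothelial cells *Ltbp4* (379 CPM against 228 to 241) and *Ltbp3* (59.3 CPM against 30.2 to 32.0) were high in cKO replicate 11, and *Tgfb2* was high in control replicate 4 (229 CPM against 79.9 to 97.4). *Tgfb1* was at 0 in committed OPCs of cKO replicate 10 (11.9 to 14.1 CPM in the others, 12 UMIs in the group), and *Tgfbr2* was low in OPCs of the same library (3.07 CPM against 14.1 to 16.1).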

How the results depend on the processing

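*Ltbp1* in OPCs, not tested with the filter on low counts, had an unadjusted exact p of 0.0286 (log2 2.56), and was past the threshold on adjusted p without the filter (2.33) and in the unfiltered fit with nuclei of at least 1000 UMIs (2.51), with free RNA subtracted (2.35), at resolution 2 (1.96) and with DESeq2 size factors (2.33). Leaving out 1 library gave 2.18 to 2.88 with the filter, where the gene was tested in 5 of the 8 fits, and 2.15 to 2.93 without it. In those 5 fits it passed the filter only through libraries labelled cKO, the group in which it is high, so its calls there are no support. The members called between genotypes were 0, 1 without the filter, and 0 to 1 with a library left out, where the 1 is *Ltbp1* in OPCs in these same fits. In the interaction they were 0, 1 without the filter, and 0 to 1 with a library left out, called only without cKO replicate 11. The share of OPCs with a UMI differed by 9.19 percentage points unthinned (exact p = 0.0286, no adjustment), and by 1.98 to 3.61 thinned with a library left out. Pathway genes called between genotypes were 0, 3 without the filter (*Fbn2* in OLs among them) and 1 by DESeq2 (*Fbn2* in OLs). Calls between types were 44, and 29 at resolution 2, where neurons were absent and T cells were added. The shares of all genes called between types were counted for the main fit only. Without the library as a block they were 43, and no paired analysis was possible between genotypes because their replicate numbers differ. *Ltbp1* in OPCs against the other types was -1.09, and it was 1.42 in the libraries labelled cKO, where neurons did not enter. It was 0.68 at resolution 2, where the cause was not tested. Of 335 single values under the alternatives 329 kept their direction and side of the threshold. Among 501 values of the 36 genotype differences 42 had another sign, all of pairs with a difference of at most 0.21. Few OPC nuclei and UMIs limit *Ltbp1* there.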
